A study of Caenorhabditis elegans with 2 samples.

Results

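The 8 genes described here encode the alpha and beta tubulins tba-1, tba-2, tba-4, tbb-1, tbb-2, tbb-4, mec-7 and mec-12 of Caenorhabditis elegans, and they are 8 of the 19985 protein-coding genes of the annotation. They were taken by name as a family chosen by the peak signals and ranks already seen in these data, among them a high peak next to tba-2. Signals and ranks are therefore given as a description with no test. The data are chromatin immunoprecipitation followed by sequencing (ChIP-seq) of the transcription factor PAX-1, a paired-domain protein, in late embryos. The animals came from strain OP117, which carries the integrated transgene wgIs117 with an eGFP-tagged pax-1 in an unc-119(ed3) background, and whole animals of both sexes were pooled. There was 1 group with 2 biological replicates and no untagged group. The authors called peaks against a control, which was not analysed here. The labels do not give the promoter or the copy number of the transgene, or how the cultures of the replicates were kept apart.

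Microtubules are hollow polymers of tubulin dimers, each made of 1 alpha and 1 beta subunit. They form the spindle and the centrosomal asters of dividing cells, the axonemes of sensory cilia, and the tracks for transport in axons. Worms have several genes for each subunit. Of these, tba-1 and tba-2 (alpha) and tbb-1 and tbb-2 (beta) supply much of the tubulin of the early embryo, and tba-4 is an alpha tubulin with broad expression. These 5 genes form the broadly expressed class below. The neuron-specific class holds 3 genes. The beta tubulin mec-7 and the alpha tubulin mec-12 build the bundled microtubules of the touch receptor neurons, and the beta tubulin tbb-4 is found in ciliated sensory neurons. The animals were not separated by tissue, so a binding event in a few neurons and a weak one in all cells cannot be told apart.

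Only 1 of the 8 genes, tba-2, had a peak that passed the authors' threshold for reproducible peaks. A peak was counted for a gene when at least 1 bp of it lay in the gene or within 2 kb of one of its annotated transcript starts. By this rule 5.41% of all protein-coding genes had a thresholded peak and 72.2% had a peak in the list called on the pooled replicates. Among the tubulin genes, 6 of 8 had a pooled peak and 4 of 8 had a peak in the lists of both replicates, against 61.2% of protein-coding genes. Replicate 1 had a peak at 6 of 8, against 72.6% of protein-coding genes, and replicate 2 at 5 of 8, against 75.9%. These shares are close to those of all genes, and with 8 members they carry no test. The broadly expressed class held 1 gene of 5 with a thresholded peak, 3 with a pooled peak and 3 with a peak in both replicates. The neuron-specific class held 0 of 3, 3 and 1 such genes.

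Sequences near 5 of the genes are shown because they contrast a peak shared with a neighbour (tbb-1), weak peaks upstream of neuron-specific genes (tbb-4 and mec-7), and the stretch before the start of broadly expressed genes with no pooled peak (tba-4 and tbb-2). All were read from the RefSeq sequence of WBcel235 (ce11) on the strand of the tubulin gene, 5′ to 3′. Capitals mark any of 10 hexamers on either strand. An earlier look at these peaks had found 8 of them more often at thresholded summits, and these were AGAGAC along with CGTCTC, then ACGCAG along with GACGCA, then CGAGAC along with AGCGCG, and finally GAGCGC along with GCGCGC. The others were TATAAA, the core of a TATA box, and GTCACG, part of the paired-domain consensus. Several of the 8 overlap in sequence, so their matches are not independent. The tbb-1 sequence is the part of its peak between the annotated starts of rib-2 and tbb-1, chrIII:10742589-10742809, minus strand, 221 bp. The tbb-4 sequence is a window that reaches 75 bp to either side of its summit, chrX:9437969-9438119, minus strand, and the mec-7 sequence is the same kind of window, chrX:7778168-7778318, minus strand. The tba-4 sequence is the 200 bp before its start, chrII:10918506-10918705, plus strand, and the tbb-2 sequence is the 200 bp before its start, chrIII:4017628-4017827, minus strand.
tbb-1: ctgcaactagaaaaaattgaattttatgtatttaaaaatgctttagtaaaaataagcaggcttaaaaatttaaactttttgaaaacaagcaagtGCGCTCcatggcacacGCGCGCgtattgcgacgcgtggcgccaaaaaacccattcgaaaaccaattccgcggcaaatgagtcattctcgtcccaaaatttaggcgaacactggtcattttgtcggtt
tbb-4: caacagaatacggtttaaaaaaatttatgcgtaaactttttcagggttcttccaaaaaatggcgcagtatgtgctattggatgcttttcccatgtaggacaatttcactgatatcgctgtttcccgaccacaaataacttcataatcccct
mec-7: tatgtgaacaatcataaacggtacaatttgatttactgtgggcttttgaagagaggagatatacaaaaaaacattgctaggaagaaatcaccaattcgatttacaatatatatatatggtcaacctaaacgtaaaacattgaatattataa
tba-4: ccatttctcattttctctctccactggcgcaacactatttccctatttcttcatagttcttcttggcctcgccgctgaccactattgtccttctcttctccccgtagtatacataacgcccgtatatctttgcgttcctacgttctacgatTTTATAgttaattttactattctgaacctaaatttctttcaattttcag
tbb-2: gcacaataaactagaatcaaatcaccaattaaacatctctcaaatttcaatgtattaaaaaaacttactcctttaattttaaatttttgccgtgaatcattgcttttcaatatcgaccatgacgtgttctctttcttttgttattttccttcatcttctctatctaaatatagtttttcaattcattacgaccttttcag

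The alpha tubulin gene tba-2 (WBGene00006529, chromosome I, 12964674 to 12966795, minus strand) stood far above the other 7. Its peak had a signal of 191.3 and rank 20 of 30000 in the pooled list, a signal of 111.2 and rank 28 of 30000 in replicate 1, and a signal of 80.03 and rank 26 of 29397 in replicate 2. Signals are the authors' own values on a scale that is not stated and are comparable only within a list, so ranks are used below. In the pooled list only 0.120% of protein-coding genes had a peak this high or higher by the same rule. The shares were 0.205% in replicate 1 and 0.0901% in replicate 2. The pooled peak ran over 104 bp, from 12966878 to 12966981, where the usual width in that list was 344 bp. That width was held by 29980 of the 30000 pooled peaks and by 694 of the 714 thresholded ones. Other widths thus occurred among the highest peaks and are not particular to tba-2. Its summit was intergenic, 136 bp upstream of the first of the gene's 2 annotated starts. The summits of replicates 1 and 2 were 24 bp apart. They were 22 bp and 2 bp from that of the pooled peak, which was called on the same 2 replicates. The only other protein-coding start within 2 kb of the summit was that of pbs-2, a proteasome core subunit gene read in the same direction, 1349 bp away. The high peak at tba-2 was therefore present at nearly the same place in both replicates and had the tba-2 start as its nearest. Presence in both replicates is also what the authors' threshold for reproducible peaks selects for.

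The window of tba-2 held 2 more pooled peaks, both lower and nearer to another gene. The peak at rank 2199 had its summit 319 bp upstream of pbs-2 and 347 bp upstream of eif-6, a translation initiation factor gene, and 1804 bp from tba-2. It ranked 1231 in replicate 1 and 12578 in replicate 2. The peak at rank 7976 overlapped the 3′ end of tba-2, with its summit past that end, 39 bp upstream of the start of C47B2.2. Replicate 1 also had a peak at rank 22433 in an intron of tba-2, which replicate 2 did not have.

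**Figure D1:**
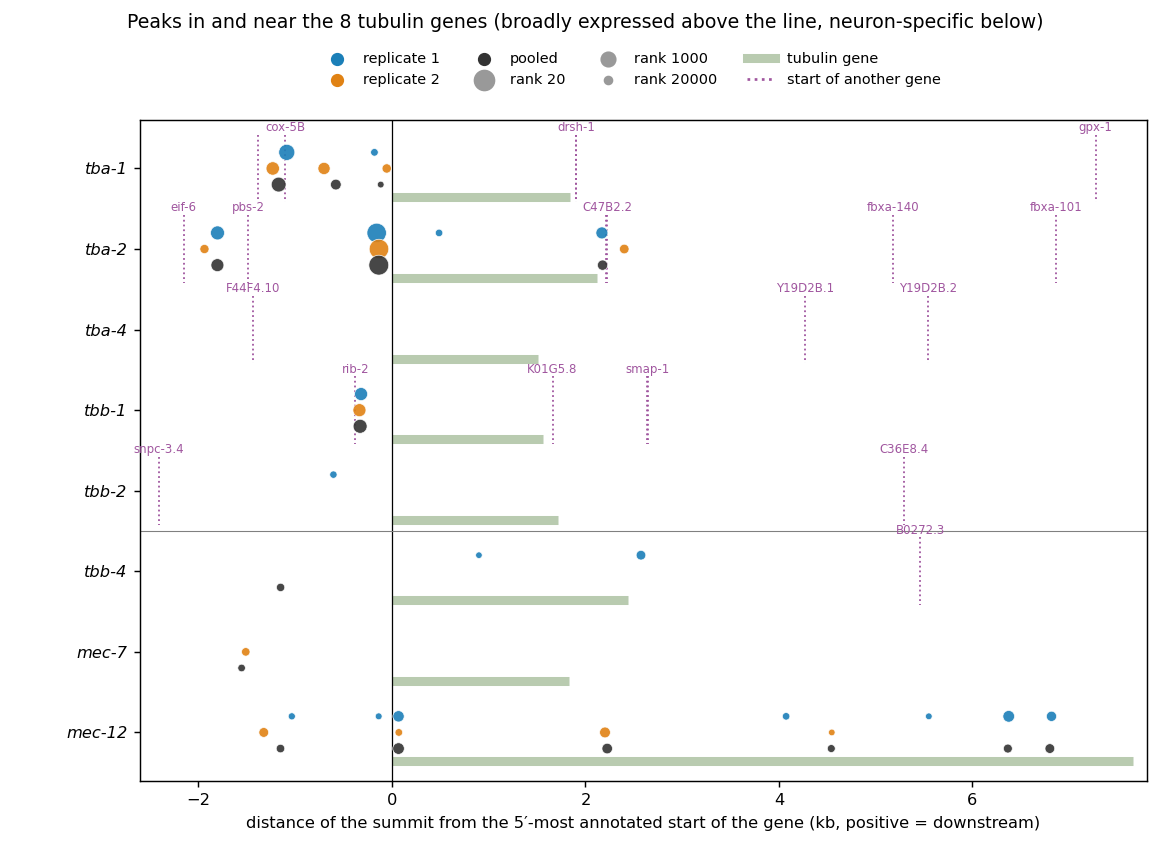
Summits of peaks in each tubulin gene or within 2 kb of its starts, by distance from the 5′-most annotated start in kb, with 1 row per gene and the lists of replicate 1, replicate 2 and the pooled replicates as 3 lines of points. Larger points have a higher rank, green bars are the tubulin genes, and dotted lines are annotated starts of other protein-coding genes, each gene named once; the largest points lie just upstream of tba-2, while those at tba-1 and tbb-1 lie beside the starts of cox-5B and rib-2.

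The second broadly expressed alpha tubulin gene, tba-1 (WBGene00006528, chromosome I, 9785781 to 9787624, minus strand), fell just outside the thresholded list. The last thresholded peak had rank 714 and a signal of 58.3, and the first below it a signal of 58.2. The best pooled peak of tba-1, from 9788623 to 9788966, had rank 751, a signal of 57.4 and a q value of 0.0167. At tba-2 the q value was 0.0142, the lowest of the pooled list. That value is also the median of the thresholded list, so q does not rank the highest peaks. The tba-1 peak ranked 336 in replicate 1 and 1721 in replicate 2. It was therefore among the 714 highest peaks of replicate 1 and not among those of replicate 2. By that measure tba-1 and tba-2 counted in replicate 1, against 5.42% of protein-coding genes, and tba-2 alone in replicate 2, against 5.25%. In these 3 lists 5.66%, 2.62% and 11.2% of protein-coding genes had a peak as high or higher. The summit lay 1171 bp upstream of tba-1 but 70 bp inside cox-5B, a gene for a subunit of cytochrome c oxidase on the other strand, in its 5′ UTR. The summits of replicates 1 and 2 were 145 bp apart, on either side of the 5′-most of the 2 annotated cox-5B starts.

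Closer to tba-1 the peaks were weak. A pooled peak 580 bp upstream of the start had rank 6606, and it overlapped a peak of replicate 2 at rank 3253 and none of replicate 1. The peak nearest to the start, 116 bp upstream, had rank 28056 of 30000 and a q value of 0.941. It overlapped peaks at rank 21504 in replicate 1 and rank 11890 in replicate 2. The pair of alpha tubulin genes most used in the early embryo thus differed in the peak beside their own starts, at rank 20 for tba-2 and rank 28056 for tba-1.

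The beta tubulin gene tbb-1 (WBGene00006536, chromosome III, 10740868 to 10742432, minus strand) had a single peak, which ranked evenly in the replicates. It had rank 1252, a signal of 46.5 and a q value of 0.0619 in the pooled list, rank 2079 in replicate 1 and rank 2091 in replicate 2. The share of protein-coding genes with a peak as high or higher was 9.10% in the pooled list, 13.6% in replicate 1 and 13.1% in replicate 2. The summits of the replicates were 17 bp apart. The pooled summit was intergenic, 329 bp upstream of tbb-1 and 49 bp upstream of rib-2, a gene for a heparan sulfate glycosyltransferase that runs the other way. The peak thus lay in a promoter region shared by 2 genes, nearer to rib-2, and binding for either gene cannot be told apart. Of the tubulin summit windows it was the only one with a match to any of the 10 hexamers, GAGCGC and GCGCGC, both visible in the printed sequence.

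The other broadly expressed genes had no pooled peak. In tba-4 (WBGene00006530, chromosome II, 10918706 to 10920211, plus strand) no peak of any list lay in the gene or within 2 kb of its start. The nearest pooled peak was 3944 bp away at rank 7982, and its summit was 75 bp from the start of F44F4.15. Peaks of replicates 1 and 2 came no closer than 3975 bp and 3864 bp. The stretch between neighbouring pooled peaks that holds the tba-4 start ran for 10.2 kb. On chromosome II, 284 of the 4031 stretches were as long or longer (median 1.73 kb). A stretch found through a position in it is more often a long one, so this count is not the share of positions in such stretches. The stretches at the starts of tba-2, tbb-1 and tbb-4 ran for 2.09, 2.32 and 4.35 kb, against chromosome medians of 1.57, 1.55 and 1.82 kb.

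In tbb-2 (WBGene00006537, chromosome III, 4015910 to 4017627, minus strand) a single peak was found, in replicate 1 alone, at rank 23407. Its summit was 605 bp upstream of the start, in an exon of the non-coding RNA gene C36E8.10. The nearest pooled peak had rank 1616 and lay 2254 bp from the tbb-2 start. Its summit was 16 bp from the start of snpc-3.4, a gene for a subunit of the small nuclear RNA activating complex. The stretch free of pooled peaks around the tbb-2 start was 7.40 kb, and 320 of 4429 on chromosome III were as long or longer. The limit given for the tba-4 stretch holds here too.

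**Figure D2:**
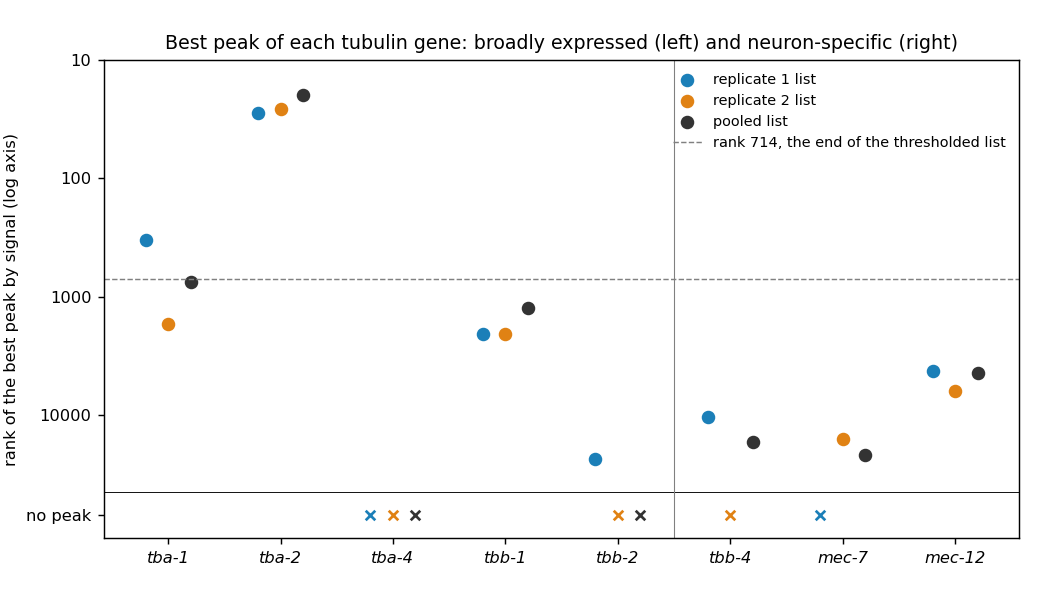
Rank by signal of the best peak of each tubulin gene in the lists of replicate 1, replicate 2 and the pooled replicates, on a log axis with high ranks at the top; crosses mark genes with no peak and the dashed line is rank 714. Only tba-2 lies above the line in all 3 lists, tba-1 does so in replicate 1 alone, and tba-4 has no peak in any.

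The best pooled peak of each neuron-specific gene ranked below the best of each of the 3 broadly expressed genes with a pooled peak. Lower peaks of the classes overlapped, since the best mec-12 peak stood above the lesser tba-1 peaks and the lowest tba-2 peak. The best pooled ranks were 20 at tba-2, 751 at tba-1 and 1252 at tbb-1, against 4398 at mec-12, 16931 at tbb-4 and 21757 at mec-7. The order does not hold for the whole classes, since tba-4 and tbb-2 had no pooled peak at all. It also depended on the window. Within 500 bp the best rank was 6606 at tba-1, below the 4398 of mec-12, and within 5 kb the best rank of tbb-4 was 1475. The best peaks of tba-1 and tbb-1 were nearest to the starts of cox-5B and rib-2. The median best rank of all 14439 protein-coding genes with a pooled peak was 8009, so mec-12 lay above it and tbb-4 and mec-7 below it. Genes of a class are not replicates of each other, and the difference was not tested.

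The alpha tubulin gene mec-12 (WBGene00003175, chromosome III, 3131574 to 3139234, minus strand) had the most peaks, 6 in the pooled list, 7 in replicate 1 and 4 in replicate 2. It is also the longest of the 8 at 7661 bp, with a search window of 9.66 kb against a median of 4.18 kb over all protein-coding genes. Per kb of window it held 0.621 pooled peaks, against 0.708 at tba-1, 0.663 at tba-2 and a median of 0.250 over all genes. The best pooled peak, with a signal of 29.9 and a q value of 0.615, had its summit 68 bp inside the gene, in the 5′ UTR. It overlapped peaks at rank 4987 in replicate 1 and rank 21463 in replicate 2, whose summits were within 3 bp of it.

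The highest mec-12 peaks of the replicates were at other places. Replicate 1 had its highest at rank 4216 in an intron, 6375 bp downstream of the start, where replicate 2 had none. Replicate 2 had its highest at rank 6339 in an intron, 2202 bp downstream, where replicate 1 had none. In all, 4 of the 6 pooled peaks of mec-12 had intronic summits. Their ranks ran from 7123 to 19375, and each overlapped a peak of 1 replicate only.

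The beta tubulin gene tbb-4 (WBGene00006538, chromosome X, 9434452 to 9436893, minus strand) had 1 pooled peak, at rank 16931 with a signal of 19.6 and a q value of 0.926. It was intergenic, 1151 bp upstream of the start, and overlapped no peak of either replicate. Replicate 1 had 2 other peaks in the window, and replicate 2 had 0. The one at rank 10453 overlapped the 3′ end of tbb-4 with its summit past that end, and the one at rank 29282 had its summit in an intron. No protein-coding start other than that of tbb-4 lay within 2 kb of the pooled summit.

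The beta tubulin gene mec-7 (WBGene00003171, chromosome X, 7774856 to 7776689, minus strand) had a single pooled peak, the lowest of the 6 genes' best peaks, at rank 21757 with a signal of 17.7 and a q value of 0.935. Its summit was 1554 bp upstream of mec-7 in an intron of ZK154.4, nearer to the start of ZK154.1 at 1334 bp. It overlapped a peak of replicate 2 at rank 15952 and none of replicate 1, whose nearest peak was 4164 bp from the start. The mec-7 start lay at the edge of a stretch of 35.1 kb without a pooled peak, from 7742951 to 7778070. Of 4994 such stretches on chromosome X, 14 were as long or longer, and the median was 1.82 kb. As at tba-4, this count is not the share of positions in stretches of this length. The stretch also covers deg-1, a gene for a sodium channel subunit of neurons that ends beside mec-7. The genes of the stretch were not listed in full, so nothing is said of the kinds of gene it holds.

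**Figure D3:**
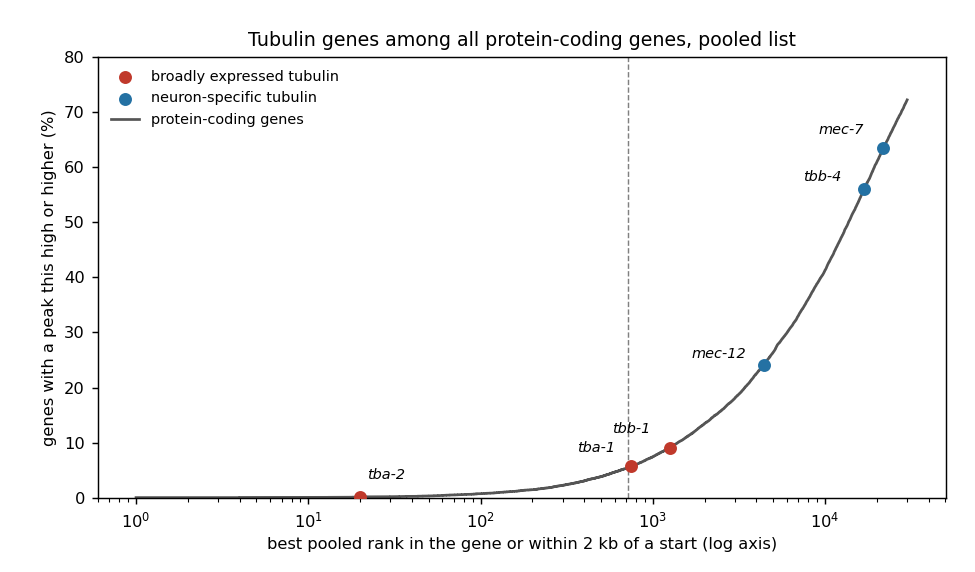
Share of all 19985 protein-coding genes whose best pooled peak in the gene or within 2 kb of a start reaches a given rank (curve, log axis of rank), with the 6 tubulin genes that have a pooled peak as points. At tba-2 the curve stands at 0.120%, at tba-1 and tbb-1 it stands at 5.66% and 9.10%, and at the neuron-specific genes it stands between 24.1% and 63.4%; the dashed line is rank 714.

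By subunit, 3 of 4 alpha and 3 of 4 beta genes had a pooled peak, and the alpha genes held 12 pooled peaks against 3 for the beta genes. The search windows summed to 22.4 kb for the alpha and 16.4 kb for the beta genes, which gave 0.535 and 0.182 pooled peaks per kb. Over the windows of all protein-coding genes the value was 0.317 per kb. Of the 12 alpha peaks, 6 were those of mec-12. Over all 8 genes, 8 of the 15 pooled peaks overlapped a peak in both replicates, 2 in replicate 1 only, 4 in replicate 2 only and 1 in neither.

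The best pooled peak had the tubulin start as its nearest protein-coding start in 3 of 6 genes, tba-2, tbb-4 and mec-12. Over all protein-coding genes with a pooled peak the share was 64.6%. For tba-1, tbb-1 and mec-7 another gene was nearer. When the search was widened to 5 kb, the best peaks reached by tba-4, tbb-2 and tbb-4 also lay beside the start of another gene. At tbb-4 the pooled peak so reached had rank 1475 and was 87 bp from memb-1, a SNARE gene, and 4765 bp from tbb-4 itself. Even at 5 kb only tba-2 had a thresholded peak, against 8.73% of protein-coding genes.

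Base composition and short motifs were read at the summits, and they did not enter the choice of genes. The 8 hexamers, however, were picked as more frequent at thresholded summits of these same data. Their higher share in thresholded windows was thus set by that choice, and pooled windows also include the thresholded ones. The windows around the best pooled summits, 75 bp to either side, held 41.7% G+C at tba-2, 44.4% at tba-1 and 32.5% at tbb-1, against 43.7% at mec-12, 37.7% at tbb-4 and 28.5% at mec-7. The mean was 43.8% over 696 nuclear thresholded windows and 32.5% over 29981 nuclear pooled windows. The window of tba-2 held none of the 8 hexamers found earlier at thresholded summits, nor TATAAA or GTCACG. It shared this lack of the 8 with 30.03% of thresholded windows and 82.3% of pooled windows. The single hexamers were found in 13.6% (GCGCGC) to 31.03% (AGAGAC) of thresholded windows, with TATAAA in 10.6% and GTCACG in 6.18%. In pooled windows they were found in 1.70% (GCGCGC) to 6.34% of windows for AGAGAC, while TATAAA was found in 20.8% and GTCACG in 1.97%.

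In the 250 bp before each gene's 5′-most start, mec-12 held AGAGAC along with CGTCTC, and also ACGCAG along with GACGCA. The gene mec-7 held AGAGAC along with CGTCTC there. Of the broadly expressed genes, tba-1 and tba-4 held TATAAA there, while tba-2, tbb-1 and tbb-2 held none of the 10, nor did tbb-4. Over 19973 such windows of protein-coding genes, AGAGAC was found in 12.3%, CGTCTC in 9.17%, ACGCAG in 7.23%, GACGCA in 7.49% and TATAAA in 35.2%. All matches were counted on either strand. The match in the printed tba-4 sequence reads TTTATA on the strand of the gene, so it is not a TATA box in the gene's direction. Among the tubulin genes only mec-7 and mec-12 held any of the 8 earlier hexamers before the start, while 67.9% of the 19973 windows held none. Several of these hexamers overlap in sequence, so matches at a gene need not be separate sites. Any link to peak rank was not tested.

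Annotated starts of worm genes often mark the place where a spliced leader RNA is joined to the transcript, which follows a splice acceptor, and the true start of transcription lies upstream. The printed tba-4 and tbb-2 sequences both end in TTTCAG, the usual form of such an acceptor. Of the 10 annotated starts of the tubulin genes, 6 directly followed TTTCAG, against 11.6% of 29314 protein-coding starts, a search chosen after the sequences had been seen. They were the starts of tba-4, tbb-1, tbb-2 and tbb-4 and the inner starts of tba-1 and tba-2. Distances from a summit to these starts need not be distances to the place where transcription begins.

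Genes that share a peak with tba-2 by the 2 kb rule, such as pbs-2, were left out of the next comparison. Of the others, the genes whose best peaks ranked most like that of tba-2 in the 2 replicates all shared 1 peak. They were sec-61.G, which encodes a subunit of the protein translocation channel, F32D8.13 and F32D8.7, at rank 25 in replicate 1 and rank 27 in replicate 2. Their distance to tba-2 was 0.0519 on the log10 rank scale over the 2 replicates. It was the smallest among the 1064 genes compared, which had a thresholded peak and peaks in both replicates and shared no peak with tba-2.

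Genes that work with tubulin were counted by the same rule in 5 lists with 57 genes. Of the 57, 9 had a thresholded peak (15.8%, against 5.41% of all protein-coding genes), but only 1 of these peaks, at pfd-6, had the listed gene's start as its nearest. The share by nearest start over all protein-coding genes was 2.87%. Of the 20 genes for tubulin folding, 7 had a thresholded peak. They were cct-1, cct-5, cct-6, cct-7 and cct-8 of the CCT chaperonin, which folds newly made tubulin and actin, and pfd-1 and pfd-6 of prefoldin, which hands them to it. The best pooled ranks were 110 at cct-1, 113 at cct-6, 225 at pfd-1, 288 at cct-7, 320 at cct-8, 611 at pfd-6 and 701 at cct-5. The best ranks in the replicate lists were uneven. Each is the best rank in the window of the gene, and overlap with the thresholded peak was not checked for list genes. In replicates 1 and 2 the best ranks were 47 and 1732 at cct-1, 326 and 1058 at cct-7, and 331 and 1213 at cct-8. They were 135 and 167 at cct-6, 579 and 182 at pfd-1, 914 and 788 at pfd-6, and 1072 and 525 at cct-5. The summit at cct-1 was 264 bp from its start and 156 bp from that of mig-5, and the summit at cct-6 was 332 bp from its start and 1 bp from that of alh-9.

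In the list of microtubule binding and severing genes, 2 of 16 had a thresholded peak. The one at cls-2, which encodes a CLASP protein that stabilizes microtubules, had rank 18, with its summit 988 bp upstream of cls-2 and 270 bp from the start of R107.5. The one at mei-2, which encodes a subunit of the microtubule-severing protein katanin, had rank 168 and lay 244 bp from the start of bag-1. None of the 8 other tubulin genes, the 3 genes of the gamma tubulin complex or the 10 tubulin-modifying genes had a thresholded peak. The best of the other tubulins was the beta tubulin ben-1, at rank 886 in the pooled list, with its summit in a ben-1 intron. The best ranks in its window were 1001 in replicate 1 and 5134 in replicate 2, not necessarily of the same peak. The median best pooled rank of genes with a pooled peak was 2825 for the 8 tubulin genes, 1857 for folding, 9713 for the other tubulins, 7752 for tubulin modification, 8216 for microtubule binding and severing and 6281 for the gamma tubulin complex, beside 8009 for all protein-coding genes.

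**Figure D4:**
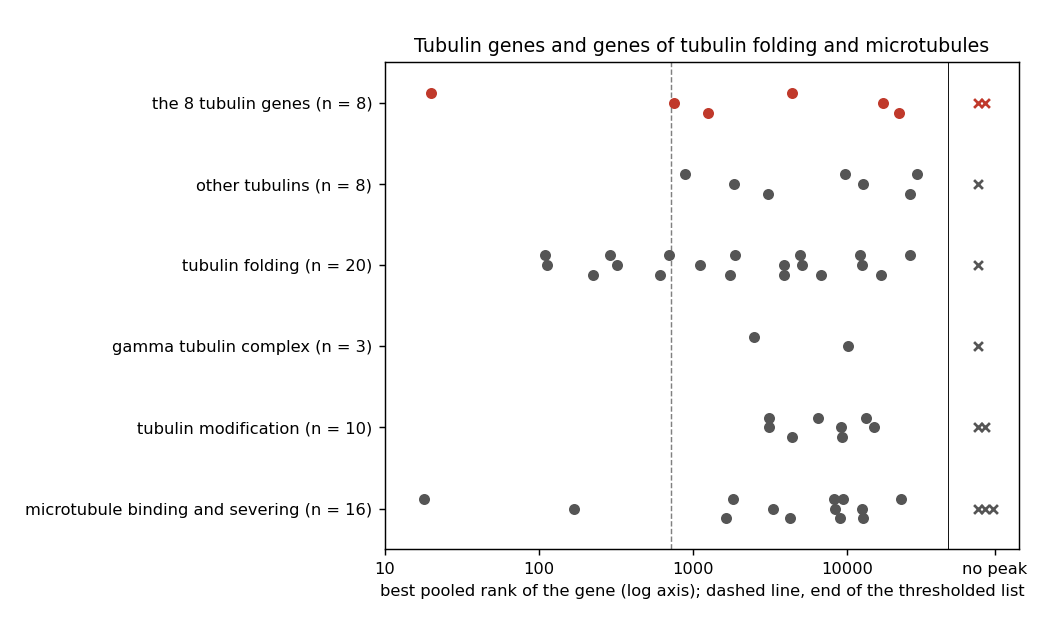
Best pooled rank (log axis) of each of the 8 tubulin genes and of each gene in the 5 lists of genes that work with tubulin; crosses mark genes with no pooled peak and the dashed line is rank 714. The tubulin folding genes have 7 points left of the line, the microtubule binding and severing genes 2, the 8 tubulin genes 1, and the remaining lists none.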

How the data were processed

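The authors deposited peak lists in the narrowPeak layout, and 4 on the build ce11 were used, 1 for each of the 2 replicates, 1 for the pooled replicates (30000 peaks) and the thresholded list (714 peaks, which are the 714 highest pooled peaks). Per the listing the authors deposited, each replicate list and the pooled list are calls against a control that also take in background, meant for the irreproducible discovery rate step, and the thresholded list comes from the other 3. The median pooled peak had a −log10 q of 0.0382. Names for the aligner and peak caller, and the threshold, were not given in the sources used here. Both the signal of each peak and its −log10 q are the authors' deposited values, and q was computed from the −log10 q. The files give no read counts, so depth is unknown and no counting interval was computed. Lists on ce10 were not used.

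Peaks were ranked by signal and placed on the Ensembl 115 annotation and RefSeq sequence of WBcel235, whose chromosome lengths hold every peak. A peak counted for a gene when at least 1 bp lay in the gene or within 2 kb of a transcript start on either side. The members and lists were chosen with earlier results of these data known. All 8 members are named, with genes whose start lies within 2 kb of a summit given and list genes with a thresholded peak. Also named are the 3 genes nearest in log10 rank to a member with a thresholded peak, among genes that share no peak with it. The list gene ben-1, deg-1, and the genes beside peaks farther away or beside peaks of list genes were named after their values were seen. Replicates are biological per the labels. No test was made. Peak assignment was tested on simulated data, where 200 of 200 planted peaks were recovered. Python 3.11.15, numpy 2.4.6, pandas 2.3.3 and matplotlib 3.10.9 were used.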

Additional observations from a re-analysis of the deposited data

How the results depend on the processing

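The single thresholded tubulin gene, tba-2, was the same gene with starts within 500 bp, 1 kb or 5 kb, with starts only, with summits only, in the 357 highest thresholded peaks and by nearest start. Its peak had rank 20 with the summit 136 bp from the tba-2 start, so none of these settings could drop it. The neuron-specific class stayed at 0 under each of these and with either replicate alone. Only the 5 kb window and a single replicate could have added a gene. With the 714 highest peaks of 1 replicate in place of the thresholded list, the number of tubulin genes, and of broadly expressed ones, ran from 1 (replicate 2, tba-2) to 2 (replicate 1, tba-1 and tba-2). The number with a pooled peak was 4 within 500 bp, 5 within 1 kb, 8 within 5 kb and 4 among the 7500 highest pooled peaks, and 5 to 6 with either replicate alone. The number with a peak in both replicates rose to 8 within 5 kb, a window that also reaches more starts of other genes, and was 4 under the other settings. The best rank of tba-1 was 6606 within 500 bp, since the peak at cox-5B then falls outside, and that of tbb-4 was 1475 within 5 kb, where the peak at memb-1 comes in. With 1 replicate alone the best ranks were 26 and 28 at tba-2, 336 and 1721 at tba-1, 2079 and 2091 at tbb-1, 4216 and 6339 at mec-12, 10453 at tbb-4 (replicate 1 only) and 15952 at mec-7 (replicate 2 only). No paired analysis was possible because there is 1 group. With 2 replicates, 8 genes and unknown depth, a peak that is missing from a list is not shown to be absent from the chromatin.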
